A study of Mus musculus with 8 samples.

Results

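The cluster that the authors named Unknown.2 is 1 of 20 clusters of single cells from mouse dorsal root ganglia, the paired ganglia beside the spinal cord that hold the cell bodies of sensory neurons. Its members were taken as the rows of the authors' deposited table of cluster markers that carry the cluster name Unknown.2, each of which sets the cells of that cluster against all other cells. The table has 3951 genes with an entry for Unknown.2, of 9229 genes with an entry for any cluster. From the shares of cells given for each gene, Unknown.2 held 8.98% of all cells, the fourth largest share of the 20 clusters.

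The cells came from C57BL/6 mice aged 21 to 30 days, with the ganglia of 4 mice pooled for each sample and no genetic change or drug named in the labels. Live cells of every sample were incubated with an antibody to proteasome subunit β5 and then with a fluorescent secondary antibody, and were sorted into cells that were positive (NMP-positive) and negative (NMP-negative) for the neuronal membrane proteasome, a form of the proteasome exposed at the surface of neurons. The labels list 4 NMP-positive and 4 NMP-negative samples, whose descriptions number them as lanes of 1 library per population. The table has no column for sample or population and no cell barcodes, so no value of Unknown.2 can be given by sample, no replicate spread exists for any value, and NMP-positive cells were not compared with NMP-negative cells. All samples are labelled as somatosensory neurons, whereas the genes of Unknown.2 described below are those of glia.

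Satellite glia are flattened cells that wrap each sensory cell body in a ganglion and seal it off from its neighbours. They come from the neural crest, as Schwann cells do, and are known for taking up the potassium and glutamate that active neurons release, for coupling to each other through gap junctions, and for making and passing on lipids. Apoe, Fabp7 and Dbi, the genes that mark the cluster, encode a lipid carrier that is secreted, a small protein that binds fatty acids inside the cell, and a protein that binds the coenzyme A esters of fatty acids.

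In what follows, higher and lower mean that a gene passed the deposited adjusted p-value of 0.05 with a log2 fold change above or below 0 against all other cells. The clusters had been formed from the same expression values, so these calls are a filter and a description and are not a test of Unknown.2. Of the 9229 genes, 1200 were higher in Unknown.2 (13.0%), 2533 were lower (27.4%), 218 had an entry that did not pass the filter, and the rest had no entry. Counts for the gene lists below are to be read beside these shares. The median deposited log2 fold change over all 3951 entries was -0.33. A missing entry was not taken as absence, since the table leaves out genes that are rare or whose levels are similar. The table gives no number of cells and no depth, so shares of cells carry no interval. The other cells include the clusters Low.UMI.Pep, Low.UMI.Nonpep and Low.UMI.LTMR, named for low counts of transcript molecules. These held 14.1%, 11.6% and 2.92% of all cells.

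The markers of satellite glia were high in Unknown.2 as a whole, and 14 of 14 were higher, with a median log2 fold change of 2.09. By fold change among the clusters with an entry, Unknown.2 ranked 2 for Slc1a3, Gja1 and Sox10. It ranked 3 for Glul and Sparcl1, 4 for Sparc and 1 for the other markers. Apoe had a log2 fold change of 6.07 in the authors' deposited table and was detected in 100% of Unknown.2 cells, against 46.1% of other cells. Fabp7 had 6.02 and was in 94.6% of Unknown.2 cells and 8.1% of other cells. Dbi had 4.67 and was in 99.4% of Unknown.2 cells and 61.7% of other cells. Of these marker genes Fabp7 therefore separated the cluster most by share of cells, while Apoe and Dbi transcripts were also found widely outside it. The deposited shares were 88.4% of Unknown.2 cells and 4.2% of other cells for Ttyh1, which encodes a membrane protein of glia and progenitors. Ednrb, a receptor for endothelins, was in 86.3% of Unknown.2 cells and 4.4% of other cells, and the glial cadherin Cdh19 in 81.3% of Unknown.2 cells and 4.0% of other cells.

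**Figure D1:**
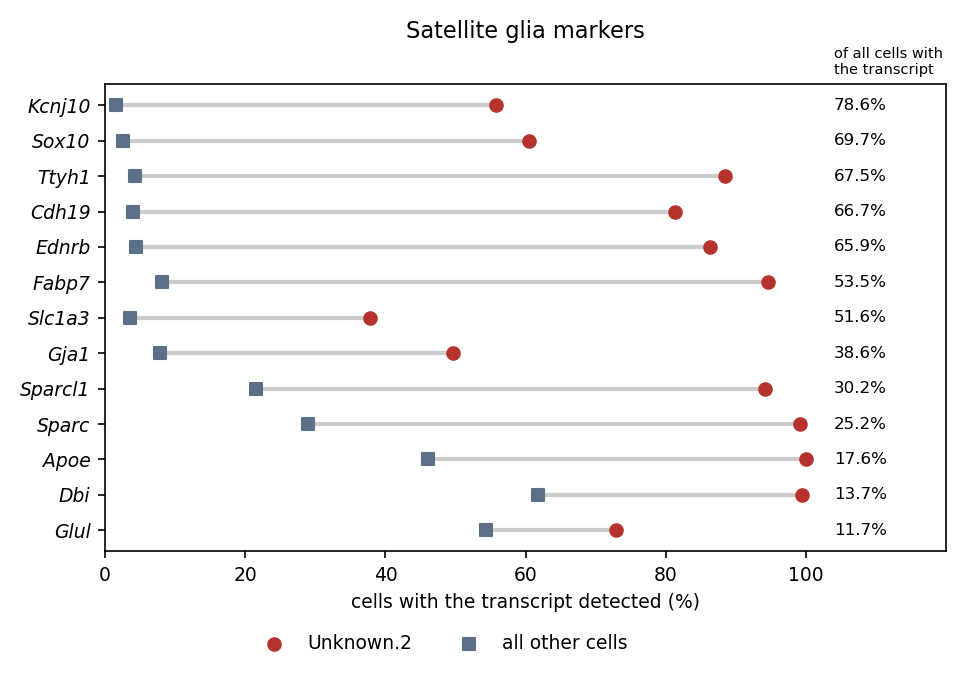
Share of cells with the transcript of 13 of the 14 satellite glia markers, in percent on the horizontal axis, in Unknown.2 (circles) and in all other cells (squares), with the share of all cells carrying the transcript that lay in Unknown.2 printed at the right. Kcnj10 is at the top with 78.6% and Glul at the bottom with 11.7%.

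The share of all transcript-bearing cells that lay in Unknown.2 follows from the deposited shares and the size of the cluster. Kcnj10, the inwardly rectifying potassium channel by which satellite glia buffer potassium, was in 55.8% of Unknown.2 cells and 1.5% of other cells in the authors' deposited table, and 78.6% of all cells with its transcript were in Unknown.2. Sox10, the transcription factor of neural crest glia, was in 60.5% of Unknown.2 cells and 2.6% of other cells, which placed 69.7% of its cells in the cluster. The same measure was 67.5% for Ttyh1, 66.7% for Cdh19, 65.9% for Ednrb and 53.5% for Fabp7. It was only 17.6% for Apoe, 13.7% for Dbi and 11.7% for Glul, the glutamine synthetase gene. The order by fold change and the order by this measure thus differed, since Apoe and Dbi had the largest and the third largest fold change. Of the 1200 higher genes, 128 had more than 50% of their cells in Unknown.2.

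Apoe and Fabp7 transcripts differed in where else they were found. In the authors' deposited table Apoe was in 79.5% of cells of Unknown.488p (log2 fold change 1.74), 90.8% of Unknown.6 (-0.68) and 83.7% of Unknown.5 (-1.51). It was also in 89.3% of LTMR, 88.1% of Non-peptidergic, 81.9% of CGRP-n, 77.3% of CGRP-e and 71.4% of CGRP-a cells. The log2 fold changes of Apoe there lay between -5.56 and -3.46 and did not pass the filter. In SST and Peptidergic.488p, Apoe was in 11.9% and 8.7% of cells. Fabp7 was in 4.8% or less of the cells of each of the other 11 clusters with an entry. In the 8 clusters without an entry, which are all named neuron clusters and hold 32.0% of all cells, the shares imply that Fabp7 was detected in 18.5% of cells on average. Fabp7 transcripts outside Unknown.2 thus lay mainly in named neuron clusters. How glial transcripts came to be counted in neuron clusters was not tested.

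**Figure D2:**
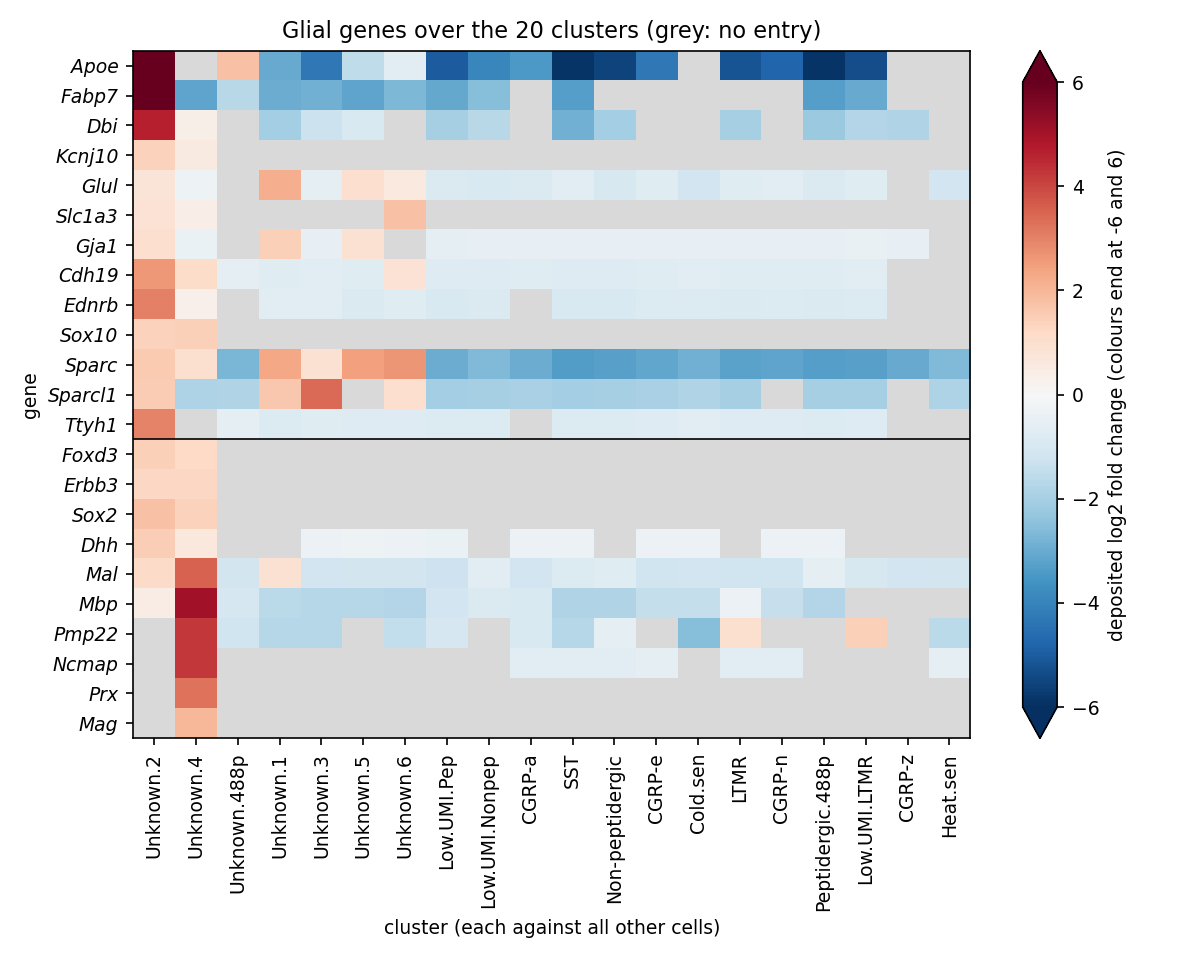
Deposited log2 fold change of 13 of the 14 satellite glia markers (above the line) and of 10 other glial and myelin genes (below it) in each of the 20 clusters against all other cells, red above 0, blue below 0, grey where the table has no entry. Unknown.2 stands at the left with the strongest red for Apoe, Fabp7 and Dbi, and Unknown.4 beside it with the strongest red for Mbp, at 5.02.

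Genes shared by peripheral glia at large were higher in Unknown.2 in 13 of 13 cases, with a median log2 fold change of 1.42. In the authors' deposited table Gpr37l1, a glial receptor, had 2.74 and was in 90.9% of Unknown.2 cells and 3.2% of other cells. Foxd3, a transcription factor of neural crest and immature glia, had 1.42 and was in 54.0% of Unknown.2 cells. Erbb3, the receptor through which axonal neuregulin reaches glia, had 1.26 and was in 53.7% of Unknown.2 cells.

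Unknown.4, in which genes of myelinating Schwann cells were high, is the other cluster with high values for general glial genes such as Sox10 and Erbb3. It held 2.78% of all cells, and 5.21% of the genes of the table were higher in it and 26.4% lower. Both clusters were compared with all other cells, so each served in the reference of the other, and the table allows no test between them. Erbb3 had the deposited log2 fold change 1.26 in Unknown.2 and 1.26 in Unknown.4, and Sox10 had 1.38 in Unknown.2 and 1.43 in Unknown.4. In the authors' deposited table Fabp7 had 6.02 in Unknown.2 and -3.16 in Unknown.4, Ptprz1, a receptor phosphatase that binds pleiotrophin, 3.20 in Unknown.2 and -0.79 in Unknown.4, and Sparcl1, a matrix glycoprotein, 1.5 in Unknown.2 and -1.86 in Unknown.4. Values of the gap junction gene Gja1 were 1.00 in Unknown.2 and -0.38 in Unknown.4, and those of Glul 0.78 in Unknown.2 and -0.31 in Unknown.4. Erbb3 and Sox10 were thus close in both clusters by fold change but not by share of cells. Sox10 was in 60.5% of Unknown.2 and 35.6% of Unknown.4 cells, and Erbb3 in 53.7% of Unknown.2 and 36.1% of Unknown.4 cells. Fabp7, Ptprz1, Sparcl1, Gja1 and Glul lay on opposite sides of 0, though the Unknown.4 entry of Gja1 did not pass the filter. Other satellite glia markers were above 0 in Unknown.4 too, among them Cdh19 (1.08), Sparc (0.98), Kcnj10 (0.56) and Dbi (0.37).

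Of 16 markers of myelinating Schwann cells, 4 were higher in Unknown.2, 1 was lower and 11 had no entry, among them Pmp22, Mag, Prx and Ncmap. Mbp, a main protein of compact myelin, had a log2 fold change of 0.46 in Unknown.2 and 5.02 in Unknown.4 in the authors' deposited table, with its transcript in 77.9% of Unknown.2 and 98.2% of Unknown.4 cells. Dhh, a ligand that Schwann cells send to the surrounding sheath, had 1.47 in Unknown.2 and 0.65 in Unknown.4, where it did not pass the filter. Egr2, the regulator of myelination, had 0.53 in Unknown.2 and 1.46 in Unknown.4. Markers of Schwann cells without myelin were mixed, with 5 of 9 higher and 3 lower. Csmd1, a large complement-regulating membrane protein, had 3.01 and the adhesion molecule Ncam1 2.48, while L1cam, another adhesion molecule, had -1.22 and Ngfr, the low-affinity neurotrophin receptor, -0.58.

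Most markers of the remaining cell types of the ganglion were lower or had no entry. So were most genes of the table, with 2533 of 9229 lower and 5278 without an entry. The share lower was 60.0% of endothelial, 40.0% of fibroblast and 22.2% of mural markers, against 27.4% over all genes. Of 10 endothelial markers 6 were lower and none was higher, with shares in Unknown.2 between 0.6% and 6.7%. Of the 9 mural markers listed, 2 were lower, none was higher and 7 had no entry, and all 12 macrophage markers had no entry. Of 10 fibroblast markers 1 was higher, 4 were lower, 1 did not pass the filter and 4 had no entry. The higher one, Col1a2, a chain of type I collagen, was in 69.7% of Unknown.2 cells and 11.9% of other cells, with a log2 fold change of 0.43 in the authors' deposited table. Of the lower ones, 2 were more frequent in Unknown.2: the collagen gene Col3a1 (-0.64) was in 23.1% of Unknown.2 cells and 7.4% of other cells, and the proteoglycan gene Lum (-0.53) in 11.8% of Unknown.2 cells and 3.3% of other cells. Asking for the same direction in the share of cells therefore left 2 lower fibroblast markers. The part of fibroblast transcripts in the results of Unknown.2 was not tested. All 20 sensory neuron markers were lower, with a median log2 fold change of -1.84 and a median share of 7.3% of Unknown.2 cells against 57.1% of other cells. Their shares ranged from 1.0 to 68.3% of Unknown.2 cells and from 10.9 to 91.1% of other cells. Calca, the gene of the peptide CGRP (-3.83), was nevertheless in 55.8% of Unknown.2 cells, Tac1, the gene of substance P (-3.49), in 47.2% and Uchl1, a neuronal deubiquitinase (-3.32), in 68.3%, in the authors' deposited table. The share of cells with Calca was 52.1% in Unknown.4, 52.2 to 61.0% in Unknown.1, Unknown.3, Unknown.5 and Unknown.6, and 34.2% in Unknown.488p. Tac1 was in 39.5 to 44.6% of the cells of the first 5 of these clusters and in 31.5% of Unknown.488p cells. By contrast Scg2, a secretogranin of peptide vesicles (-3.13), was in 6.1% of Unknown.2 cells and 57.0% of other cells. The part of these neuronal transcripts in the results of Unknown.2 was not tested.

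**Figure D3:**
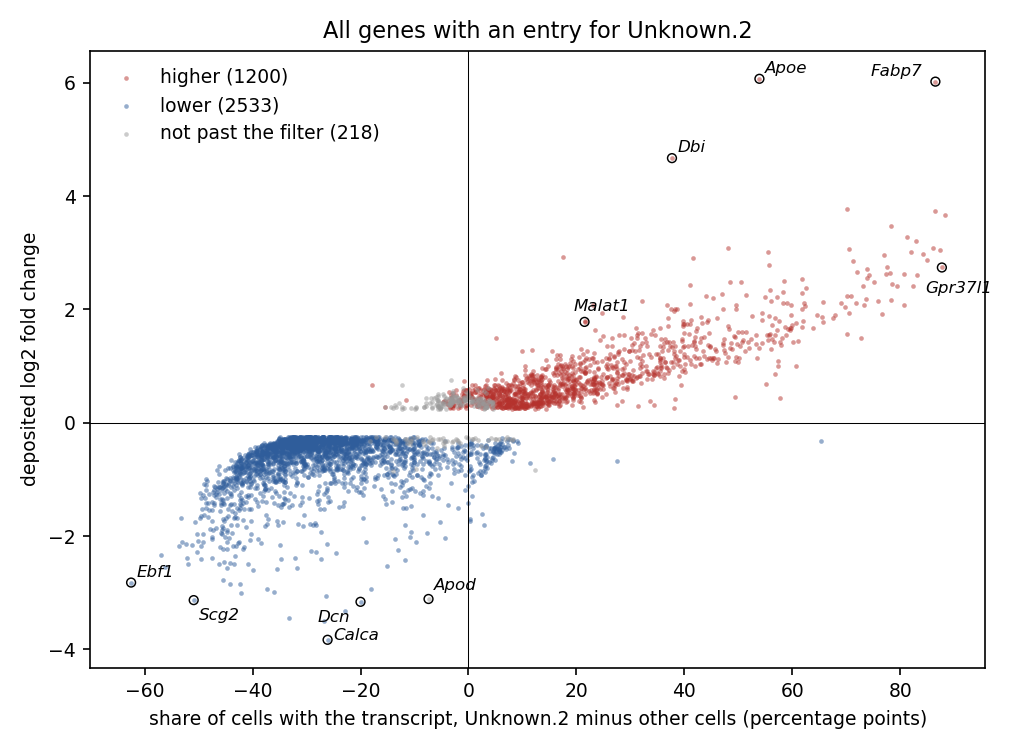
Each of the 3951 genes with an entry for Unknown.2, by the difference in its share of cells between Unknown.2 and all other cells (horizontal, percentage points) and by its deposited log2 fold change (vertical). Apoe, Fabp7 and Dbi stand at the top, and Calca, at -3.83, near the bottom.

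The leading genes of Unknown.2 besides these markers encode membrane and secreted proteins. By the authors' deposited table, Adgrb3, an adhesion receptor that binds C1q-like proteins, had a log2 fold change of 3.77 and was in 92.9% of Unknown.2 cells and 22.8% of other cells. Gpm6b, a tetraspan protein of glia, had 3.74 and was in 96.9% of Unknown.2 cells and 10.4% of other cells, whereas its paralogue Gpm6a had no entry for Unknown.2. The solute carrier family gene Slc35f1 had 3.48, Fbln2, an extracellular matrix protein, 3.28, and Ptprz1 3.20. Ptn, the ligand pleiotrophin that Ptprz1 binds, had 3.08 and was in 98.0% of Unknown.2 cells and 50% of other cells. Pmepa1, a target and inhibitor of TGF-beta signalling, had 3.06, and Abca8a, a lipid transporter of the ABC family, 3.04. The 5 further genes with the largest gaps in share of cells were Gpr37l1, Mmd2, Ttyh1, Col28a1 and Cmtm5, each in 85.8 to 90.9% of Unknown.2 cells and 2.8 to 4.4% of other cells.

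The genes lowest in Unknown.2 were neuronal, with 1 exception. Calca, Tac1, Uchl1, Scg2 and Prph, a neuronal intermediate filament, were joined by Stmn2, a microtubule regulator of growing axons (-3.45), and Tubb3, the neuronal tubulin (-3.0), in the authors' deposited table. The exception was Dcn, a proteoglycan of fibroblasts, at -3.16, in 3.3% of Unknown.2 cells and 23.3% of other cells.

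Genes for handling potassium and other ions were higher in 10 of 16 cases and lower in 3, with a median of 1.40. Atp1b2, the glial beta subunit of the sodium pump, had 1.67 and Fxyd1, a regulator of the pump, 2.63 in the authors' deposited table. Slc12a2, the sodium, potassium and chloride cotransporter, and Slc4a4, the sodium bicarbonate cotransporter, had 2.01 each, and the water channel gene Aqp4 0.59, in 24.1% of Unknown.2 cells. The lower members were Aqp1 (-1.45), Fxyd6 (-1.42) and Atp1b3 (-1.28).

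Of the genes that handle glutamate, glutamine and GABA, 4 of 10 were higher and 1 was lower. In the authors' deposited table Slc1a3, the glial glutamate transporter, was in 37.8% of Unknown.2 cells and 3.5% of other cells (0.85). Slc1a3 had a larger value in Unknown.6, 1.77, and was in 51.8% of the cells there. Slc1a5, a glutamine transporter, had 0.99 in Unknown.2, Glul 0.78 and Slc6a11, a GABA transporter, 0.27. Glul was in 72.9% of Unknown.2 cells and 54.4% of other cells, and its fold change ranked 3 among the clusters, after Unknown.1 at 2.20 and Unknown.5 at 1.02. Of 5 listed gap junction and pannexin genes, 2 were higher, Gja1 (1.00) and Gjc3 (0.86), which encode connexins of glia, and Panx1 was lower (-0.45). Gja1 was in 49.7% of Unknown.2 cells, and in Unknown.1 in 54.2%. Among purinergic genes 3 of 9 were higher and 3 lower (33.3% each, against 13.0% higher and 27.4% lower over all genes). Entpd2, an enzyme that splits extracellular ATP, had 1.41 and was in 51.4% of Unknown.2 cells, the ATP-gated channel P2rx7 had 0.79, and Nt5e, which makes adenosine, had -0.44.

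Lipid genes were higher in most cases. Of 21 genes of fatty acid synthesis and oxidation, 15 were higher, 1 was lower, 1 did not pass the filter and 4 had no entry (median 0.56). Acsbg1, an acyl coenzyme A synthetase of glia, led them in the authors' deposited table with 2.12, in 71.1% of Unknown.2 cells and 2.0% of other cells, and it had no entry for any other cluster. The desaturases Fads2 (2.01), Scd2 (1.55), Scd1 (1.27) and Fads1 (1.16) and the elongases Elovl5 (1.04) and Elovl6 (1.02) followed. Among them Fads2 had a log2 fold change above 0 in 1 of the 14 clusters with an entry, Unknown.2. Its share of cells was less particular. Fads2 was in 77.8% of Unknown.2 cells, and also in 77.0% of CGRP-e, 76.7% of LTMR and 72.5% of CGRP-n cells. The lowest share among the clusters with an entry was 4.1%, in Low.UMI.Nonpep. Fasn, the fatty acid synthase, had 0.46, while Acly, which supplies its acetyl coenzyme A, was lower at -0.48. Acaa2, a thiolase of mitochondrial fatty acid oxidation, had 1.38.

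Of 24 genes of cholesterol synthesis and its regulation in the table, 15 were higher, 1 was lower and 8 had no entry (median 0.49). Cyp51 had a log2 fold change of 1.14, Hmgcs1, which makes the first committed precursor, 1.09, Nsdhl 0.77 and Msmo1 0.73 in the authors' deposited table. Insig1, a sterol sensor, had 0.72. Ebp, an isomerase late in the pathway, was lower at -0.27. These fold changes were smaller than those of the desaturases, and the genes were frequent in other cells too, as for Hmgcs1 in 84.7% of Unknown.2 cells and 65.4% of other cells. Among 21 lipid binding and transport genes 13 were higher and 3 lower. The authors' deposited table gave 0.90 for Abca1, which loads lipid onto Apoe, and 0.83 for the cholesterol transfer protein Npc2. Apoc1, a small apolipoprotein encoded next to Apoe in the GRCm38.p6 annotation, had 0.81, with its transcript in 24.5% of Unknown.2 cells. Fabp5, a relative of Fabp7, had 0.28 and was in 89.0% of Unknown.2 cells and 67.7% of other cells. Apod, an apolipoprotein, had -3.11 and did not pass the filter.

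**Figure D4:**
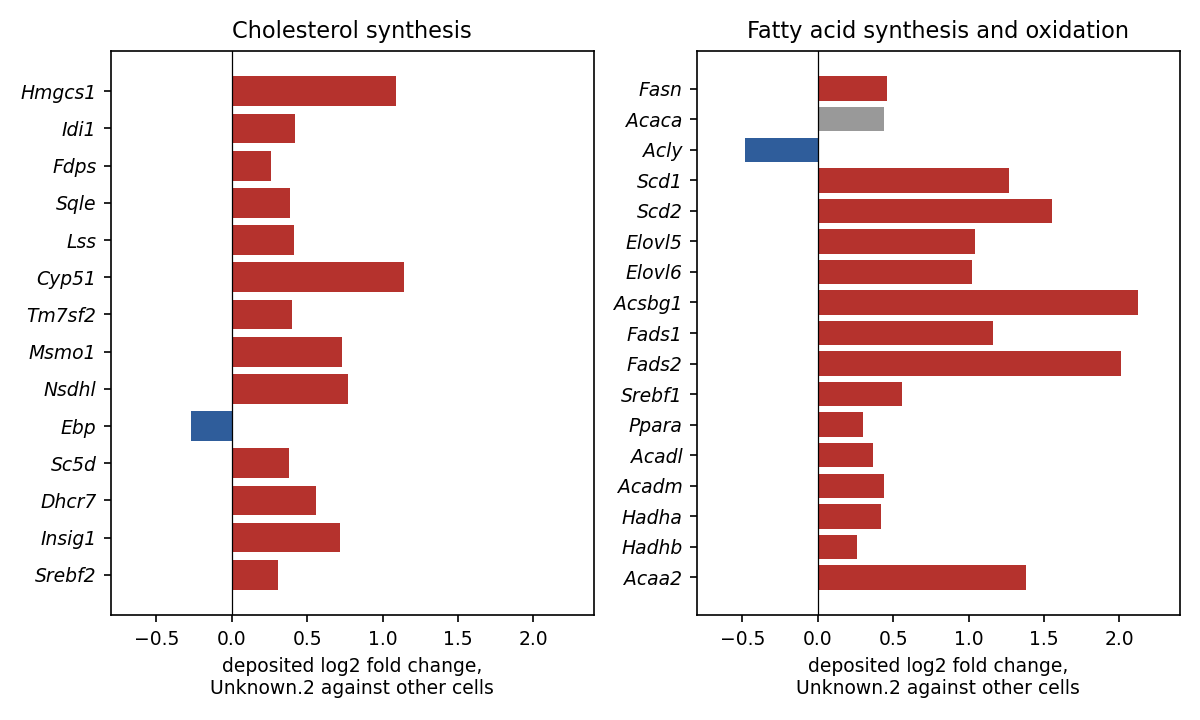
Deposited log2 fold change in Unknown.2 against all other cells (horizontal) of the genes of cholesterol synthesis (left) and of fatty acid synthesis and oxidation (right) that have an entry (14 of 16 at the left are drawn), red where higher, blue where lower and grey where the filter was not passed. Ebp (-0.27) and Acly (-0.48) are the lower genes, and Acsbg1 (2.12) and Fads2 (2.01) have the longest bars.

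The promoters of the cholesterol genes are shown because sterol enzymes are known to be switched together by SREBP factors, which act beside the factor NF-Y at the motif CCAAT. A window of 250 bases before the start, from RefSeq (GRCm38.p6), was available for 18 of the 25 listed cholesterol genes, and CCAAT on either strand was in 16 of them (88.9%), among them all 11 higher genes that have a window. It was in 33.8% of all 32851 windows, in 6 of 16 fatty acid genes (37.5%) and in 6 of 10 satellite glia markers (60.0%). The lists were counted by gene, with a match in any window of the gene, and the whole set by window. TCACCCCAC, part of the sterol regulatory element, was in the window of Hmgcs1 alone among the cholesterol genes and in 0.496% of all windows. GTGGGAA, a motif of the Notch factor RBPJ, was in 3 of 18 cholesterol genes, 3 of 12 Notch pathway genes and 5.42% of all windows. A match describes the letters of the window and not a site in use. The windows of Hmgcs1 at chr13:119690101-119690350 (plus strand), Msmo1 at chr8:64733579-64733828 (minus strand), Nsdhl at chrX:72918271-72918520 (plus strand) and the marker Fabp7 at chr10:57784673-57784922 (plus strand) read as follows, 5′ to 3′ on the gene's strand, with each match to these motifs in either orientation in capitals.
Hmgcs1: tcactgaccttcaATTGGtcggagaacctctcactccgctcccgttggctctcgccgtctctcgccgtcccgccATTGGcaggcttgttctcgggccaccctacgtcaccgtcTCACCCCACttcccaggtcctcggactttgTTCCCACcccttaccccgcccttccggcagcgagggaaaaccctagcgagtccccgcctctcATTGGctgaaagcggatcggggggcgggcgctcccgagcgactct
Msmo1: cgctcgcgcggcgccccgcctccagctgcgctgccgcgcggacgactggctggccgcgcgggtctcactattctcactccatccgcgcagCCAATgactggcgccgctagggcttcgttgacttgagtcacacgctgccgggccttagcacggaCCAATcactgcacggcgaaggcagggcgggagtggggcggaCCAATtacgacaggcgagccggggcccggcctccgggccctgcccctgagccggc
Nsdhl: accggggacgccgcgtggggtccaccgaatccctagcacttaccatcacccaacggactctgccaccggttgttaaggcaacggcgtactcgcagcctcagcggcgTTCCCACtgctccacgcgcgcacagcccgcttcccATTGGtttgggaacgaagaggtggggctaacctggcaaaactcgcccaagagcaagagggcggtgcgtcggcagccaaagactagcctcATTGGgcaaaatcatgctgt
Fabp7: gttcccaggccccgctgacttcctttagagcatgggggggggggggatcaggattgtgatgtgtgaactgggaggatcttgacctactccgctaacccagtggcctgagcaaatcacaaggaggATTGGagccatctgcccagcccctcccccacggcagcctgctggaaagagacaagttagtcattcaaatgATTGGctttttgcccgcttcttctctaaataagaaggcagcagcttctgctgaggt
Hmgcs1 and Msmo1 hold CCAAT in 3 places each, Nsdhl and Fabp7 in 2 places each.

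Transcription factors of glia were higher in 17 of 22 cases, and none was lower (median 1.31). The authors' deposited table gave 1.89 for Nfia, a factor of gliogenesis, 1.77 for Sox2, a factor of progenitors and immature glia, 1.48 for Nr2f1 and 1.46 for Sox6. Sox2 was in 68.0% of Unknown.2 cells and 2.4% of other cells, and Pou3f2, a POU factor, in 41.6% of Unknown.2 cells and 1.4% of other cells (1.04). Notch pathway genes were higher in 8 of 15 cases and lower in 1. The receptors Notch1 (0.89) and Notch2 (0.50), the ligand Jag1 (0.99) and the targets Hey2 (1.31), Hes1 (0.36), Hes5 (0.34) and Heyl (0.32) were among them in the authors' deposited table, while the ligand Jag2 was lower (-0.33). Among receptors of growth factors, lipids and peptides 8 of 17 were higher, led by Ptprz1, Ednrb, Lpar1, a receptor for lysophosphatidic acid (2.85), and Gpr37l1. The growth factor Nrg1 was lower at -0.41. Id, BMP and TGF-beta genes had 4 of 18 higher and 4 lower, with Id3 at 1.15 and Smad1 at -0.86. That was 22.2% higher and 22.2% lower, against 13.0% and 27.4% over all genes.

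Adhesion and matrix genes of glia were higher in 17 of 25 cases and lower in 4 (median 1.39). In the authors' deposited table Bcan, the proteoglycan brevican, had 2.66, Col28a1, a collagen of peripheral glia, 2.61, and Lama2, the laminin chain of the glial basement membrane, 1.92. Dag1, the dystroglycan receptor for laminin, had 1.70 and Lgi4, a ligand that glia secrete, 1.39. Spock2, a testican proteoglycan, was lower at -2.33, in 11.8% of Unknown.2 cells and 68.8% of other cells.

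**Figure D5:**
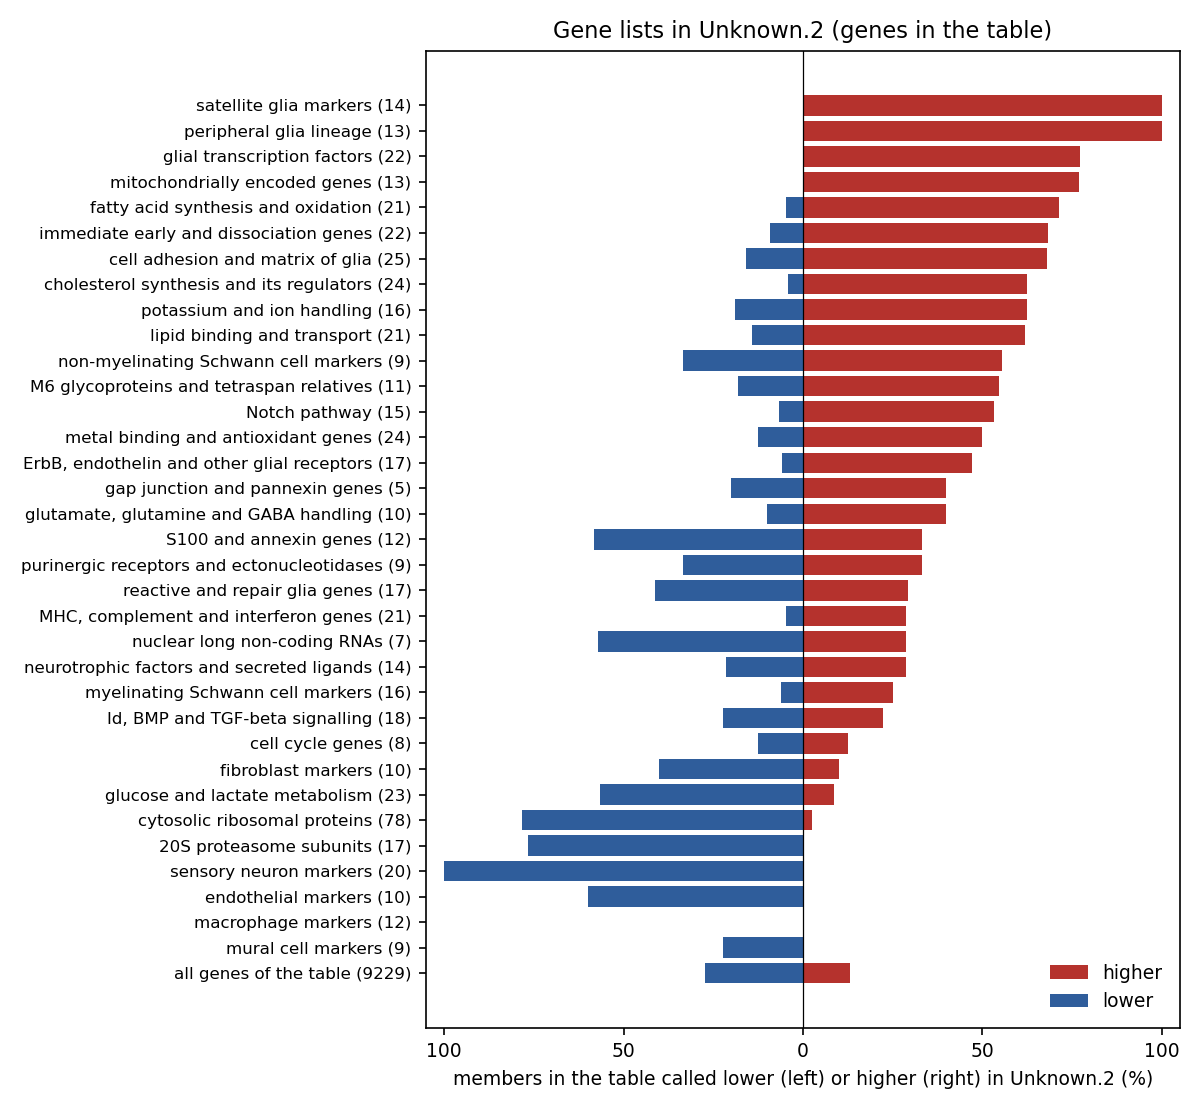
Members of each of 34 gene lists called higher (right, red) or lower (left, blue) in Unknown.2, in percent of the members in the table, whose number stands in brackets. All genes of the table, at the bottom, had 13.0% higher and 27.4% lower, and the satellite glia and peripheral glia lists stand at the top with all members higher.

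Immediate early and dissociation genes, which cells switch on within minutes of stress or tissue handling, were higher in 15 of 22 cases and lower in 2 (median 1.18). Egr1 (2.15), Fos (2.07) and Jun (1.79) encode transcription factors and Hspa1a (1.94) encodes a heat shock protein. Fos was in 95.5% of Unknown.2 cells and 72.4% of other cells in the authors' deposited table. For each of these 4 genes the fold change of Unknown.2 was the largest of the clusters with an entry, and for Jun the next cluster, Unknown.6, was close at 1.74. By share of cells, Hspa1a was more frequent in SST (79.6%) and CGRP-a (58.0%) than in Unknown.2 (55.1%). Egr1 was also higher in Unknown.1 (1.73), Unknown.3 (1.67) and Unknown.6 (1.59), and lower in Unknown.488p (-0.90). Fos was also higher in Unknown.1 (1.60), Unknown.3, Unknown.4, Unknown.5 and Unknown.6. In Unknown.1 Fos was in 96.0% of cells and Egr1 in 89.5%, against 89.0% of Unknown.2 cells for Egr1. The chaperone genes Hsp90aa1 (-1.76) and Hspa8 (-1.04) were lower. Of 17 reactive and repair genes 5 were higher (29.4%, against 13.0% over all genes) and 7 lower (41.2%, against 27.4%). Vim, an intermediate filament, had 2.90 and Cxcl10, a chemokine, 1.68, while Gap43, a growth protein of axons, had -2.22, and the astrocyte filament gene Gfap was not in the table. Whether dissociation moved these genes was not tested.

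In the list of antioxidant and metal binding genes 12 of 24 were higher and 3 lower, with the metallothionein Mt1 at 2.24 and the peroxiredoxin Prdx6 at 1.59 in the authors' deposited table. These counts include Cst3 (2.92), which encodes a protease inhibitor and is of neither kind. Genes of glucose and lactate metabolism went the other way, with 2 of 23 higher and 13 lower (median -0.59). The higher ones were Ldhb, a lactate dehydrogenase subunit (1.74), and Aldoc, the glial aldolase (1.63), and their counterparts Ldha (-1.46) and Aldoa (-1.45) were lower. Ldha was in 38.0% of Unknown.2 cells and 70.7% of other cells. For both enzyme pairs the deposited values thus lay on opposite sides of 0.

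The proteasome, the target of the labelling antibody, was represented by 17 genes of its 20S core. Of these 13 were lower (76.5%, against 27.4% over all genes), none was higher and 4 had no entry, with log2 fold changes from -0.87 to -0.36. Psmb5, the gene of subunit β5, had the lowest value of these genes, -0.87 in the authors' deposited table. Its transcript was detected in 55.7% of Unknown.2 cells and 70.4% of other cells. The lower value was not particular to Unknown.2. Psmb5 was lower in every cluster named Unknown, from -1.14 in Unknown.488p to -0.86 in Unknown.5. Its log2 fold change was above 0 in 3 of the 10 clusters with an entry, and largest in Low.UMI.Pep at 0.69. The shares of the 13 genes were 37.4 to 70.4% in Unknown.2 and 60.9 to 75.6% in other cells, and the table does not say how many Unknown.2 cells bound the antibody. Cytosolic ribosomal protein genes were lower in 61 of 78 cases (78.2%, against 27.4% over all genes) and higher in 2, with a median of -0.48. Of these 61, 53 were nevertheless detected in a larger share of Unknown.2 cells than of other cells. Of 13 mitochondrially encoded genes 10 were higher, with log2 fold changes of 0.36 to 0.96, and none was lower.

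Among the remaining lists, tetraspan genes had 6 of 11 higher and 2 lower, with Gpm6b at 3.74 and Cd63 at 2.07 in the authors' deposited table. S100 and annexin genes had 4 of 12 higher and 7 lower, with S100a1 at 1.51 and S100a10 at -2.57. Genes of MHC, complement and interferon response had 6 of 21 higher (28.6%) and 1 lower (4.76%), with Irf1 at 0.96. Secreted trophic ligands had 4 of 14 higher (28.6%) and 3 lower (21.4%), led by Ptn and Mdk, a relative of pleiotrophin (1.54). Over all genes 13.0% were higher and 27.4% lower. Long non-coding RNAs kept in the nucleus had 2 of 7 higher, with Malat1 at 1.78, and 4 lower, with Snhg11 at -2.60. Of 8 listed cell cycle genes, 1 was higher, Ccnd1 at 0.86, and 1 was lower, Cdkn1b at -0.33. The share higher, 12.5%, was close to the 13.0% over all genes, and the share lower, also 12.5%, was below the 27.4% over all genes.

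The genes whose fold changes over the 20 clusters ran most like the mean of Apoe, Fabp7 and Dbi were Col23a1, a collagen anchored in the membrane (Pearson's r 0.90), Nlgn1, a neuroligin of synapses (0.90), Ednrb (0.89), Adgrb3 (0.89) and Fads1 (0.89), with clusters without an entry taken as 0. The clusters share their cells with each other's reference, so these values are a description.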

How the data were processed

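Per the labels' protocols, libraries of sorted dorsal root ganglion cells were made in droplets with a 3′ kit, and a protocol for nuclei is named. Seurat appears in the submitters' processing notes. How reads were aligned, how cells were filtered and clustered and how doublets were handled was not given in the sources used here. Per its column names, the authors' deposited table has raw and adjusted p-values, log2 fold changes and 2 fractions of cells that carry a gene, one for the cluster and one for the remaining cells, printed here as percent. Entries reach down to an absolute log2 fold change of 0.25 and a larger share of 10%, with p-values up to 0.01. The depth is unknown.

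The share of all cells per cluster was solved by least squares over 6747 genes whose 2 shares differed by at least 5 percentage points, with a residual of 0.0274 percentage points, after testing on simulated data, in Python 3.11.15 with numpy 2.4.6. The share of a gene's cells that lay in Unknown.2 followed from it.

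The members and the 34 gene lists (584 genes, 539 in the table, 374 with an entry for Unknown.2) were chosen with earlier results of these data known, and the promoter motifs after matches had been viewed. Named genes were the 15 of largest fold change (in at least 25% of cells and 20 percentage points more frequent), the 8 of lowest, the 5 of largest gap in share, up to 4 per list by size, the satellite glia markers, Psmb5, Gpm6a and Gpm6b, and the 5 closest in pattern. Other members of lists were added as examples after their values were seen. Some genes of the lists are counted but not reported here by name. No test was run, since the clusters were defined on the same cells.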

Additional observations from a re-analysis of the deposited data

How the results depend on the processing

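No paired analysis was possible because the table has no sample columns, and for the same reason no replicate could be left out. At an adjusted p-value under 0.001, 1157 genes were higher and 2502 lower in Unknown.2, and all 68 counts of list members higher or lower stayed within 1.5 times. With an absolute log2 fold change of at least 0.5 the number of lower genes was 1227, and with at least 1 there were 353 higher genes, 384 lower genes and 96 higher list members, against 1200, 2533 and 190; these counts are smaller by construction. At that stricter fold change 40 of the 68 list counts moved by more than 1.5 times, and 11 of 14 satellite glia markers were still higher. A minimum of 25% of cells moved 8 of the 68, and asking for the same direction in the share of cells moved 5. The cluster's share of all cells was 8.98% with gaps of at least 10 or 2 percentage points and 8.98% under least absolute deviation. With no depth and no number of cells in the table, counting error cannot be stated.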

Other observations

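Genes outside the lists, chosen after their values were seen, add the following to Unknown.2. The pathway that makes serine from a glycolytic intermediate was higher, with Phgdh, its first enzyme, at 2.44 in the authors' deposited table and in 83.0% of Unknown.2 cells and 4.6% of other cells, Psph at 1.33 and Psat1 at 0.67. Gatm, which starts creatine synthesis, had 2.28 and Aspa, which splits N-acetylaspartate, 2.14 in the authors' deposited table. Secreted antagonists of Wnt signalling had 2.74 (Sostdc1) and 2.60 (Sfrp5), and Lgr4, a receptor that raises Wnt signalling, 2.15. Ntrk2, the receptor gene for the neurotrophin BDNF, had 2.55 and was in 88.1% of Unknown.2 cells and 14.3% of other cells, while Bdnf, a member of the trophic ligand list, was lower at -0.98.

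In the authors' deposited table the adhesion molecule gene Ncam2 had 2.53, Lrrc4c, a ligand of netrin-G, 2.34, the kainate receptor gene Grik2 2.25 and the adhesion receptor gene Adgrl3 2.01. Metrn, a secreted factor of glial differentiation, had 2.19 and was in 76.3% of Unknown.2 cells and 2.6% of other cells, and 74.3% of all cells with its transcript lay in the cluster. Fold change and share of cells pointed in different directions for 55 higher and 113 lower genes. Of the lower ones, 4 were more frequent in Unknown.2 by over 10 percentage points, among them Col3a1, Myl9 and Syt11. Myl9, a light chain of smooth muscle myosin, had -0.67 and was in 38.4% of Unknown.2 cells and 10.8% of other cells.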
